A study of Mus musculus with 16 samples.

Results

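The Peg10-Sgce and Gpr1 loci are imprinted loci of the mouse, on chromosomes 6 and 1. Their members are the CpGs with reads in chr6:4690000-4715000, around the neighbouring starts of Sgce and Peg10, and in chr1:63235000-63260000, inside Gpr1, in mm9 coordinates. Of 1320622 CpGs covered in any of the 16 libraries of the series, 41 lie here, 32 in the Peg10-Sgce locus and 9 in the Gpr1 locus, and 4 of the 41 were covered in all 16 libraries. Both loci were chosen by measured values of this series, since their imprinting control regions (ICRs) were close to 0% methylated in the clone O-S33Y # 2 and in 1 Old library, so the values of those libraries are given as a description, with no test.

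Imprinted genes are expressed from the copy inherited from 1 parent, and the ICR that governs them carries DNA methylation on 1 parental copy only. The ICR of Sgce and Peg10 covers the start of both genes and is methylated on the maternal copy. Both genes are expressed from the paternal copy. Peg10 derives from a retrotransposon and is needed for the placenta, and Sgce encodes epsilon-sarcoglycan, a membrane protein. Gpr1 encodes a chemerin receptor. The ICR in this gene is also methylated in the oocyte, and its imprint is known as a transient one, since the paternal copy gains methylation after implantation. An ICR with methylation on 1 of the parental copies reads close to the middle of the scale, and the reads used here do not tell the copies apart, nor a few fully methylated cells from many partly methylated ones.

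Reduced representation bisulfite sequencing (RRBS) was used. The methylation level of a CpG is the percentage of its reads that still carry a cytosine after bisulfite has converted the unmethylated ones. All libraries came from the E14 line of mouse embryonic stem cells (mESCs), grown in serum and LIF, or from embryoid bodies (EBs), the differentiating aggregates made from them without LIF. There were 2 libraries in each of 8 groups, and the study's text places the EBs at day 8 of differentiation. Young and Old are the unmodified line at a low and a high passage, O-S33Y # 1 and O-S33Y # 2 are 2 single clones made from young cells that express β-catenin with the stabilising S33Y mutation and were then kept to a high passage, and mESC shCtrl, mESC shβcat #1, EB shCtrl and EB shβcat #1 carry a control shRNA or 1 shRNA against β-catenin. By the study's text, β-catenin was silenced in young-passage cells. The study asked how DNA methylation follows β-catenin activity. The study's text calls the replicates of the young, old and S33Y cells biological ones, but neither it nor the labels say whether they are separate cultures. The limma p-values of ICRs and bins measure the spread between these libraries, which may be technical. The spread of each window is moderated toward that of windows of a like level, so it does not rest on that window alone. The p-values of single CpGs come from reads summed over a group, with 1 spread between libraries shared by all CpGs of the genome. They do not measure how far the libraries of a group differed at that CpG. Fisher's exact test uses the summed reads alone.

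The 16 libraries held 18872150 to 40478303 reads on 413266 to 1152954 CpGs. Old replicate 2 covered the fewest CpGs, had 7 of the 41 CpGs and no value at either ICR, so every Old value at an ICR below rests on Old replicate 1. O-S33Y # 1 replicate 2 had no CpG in the Peg10 ICR. On the mitochondrial genome, where methylation is taken as absent, 0.242% to 0.449% of the reads on CpGs were called methylated, which gives the background of unconverted cytosines. Of the pluripotency genes used as markers, the Pou5f1 promoter was at 0% to 1.11% in the 12 mESC libraries and at 11.5% to 25.3% in the 4 EB libraries, and the Zfp42 promoter at 0% to 8.52% and at 24.4% to 45.1%. No CpG of the Nanog promoter was covered. The Dppa3 promoter had a value in 4 libraries, at 85.7% and 94.5% in mESCs and at 80.3% and 85.8% in EBs, and the promoter of the germline gene Dazl was at 10.4% to 50.4% in mESCs and at 46.1% to 50.8% in EBs.

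The 41 CpGs fall into 4 stretches, each of which begins and ends in a CCGG site. The reference genome holds 31 CpGs in the Gpr1 ICR, of which 9 were covered, and 171 in the Peg10 ICR, of which 12 were covered. The 9 CpGs of the Gpr1 ICR lie in chr1:63247011-63247132, in an intron of Gpr1 (ENSMUSG00000046856.7) and in the first exon of the noncoding transcript Gm11607 (ENSMUSG00000086730.1). The 12 CpGs of the Peg10 ICR lie in chr6:4697355-4697490, in the 5′ untranslated region of Peg10 (ENSMUSG00000092035.1), and begin 49 bp after its start. No CpG inside Sgce (ENSMUSG00000004631.9) was covered, and the nearest lay 151 bp from its start, on the Peg10 side. The other 20 CpGs lie in the last exon of Peg10, which holds coding sequence, 7 of them in chr6:4705338-4705446 (the 5′ stretch) and 13 in chr6:4705795-4706673 (the 3′ stretch). The miRNA gene AL645950.1 in the Gpr1 locus had no covered CpG.

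The sequences behind these values are shown from mm9, on the plus strand, with every CpG in capitals. The covered part of the Gpr1 ICR is whole, the Peg10 ICR is shown by its first and last 30 bases, and the 5′ stretch of the Peg10 exon is whole, since it is the part outside the ICRs whose level was lowest in Old replicate 1.
Gpr1 ICR, chr1:63247010-63247133: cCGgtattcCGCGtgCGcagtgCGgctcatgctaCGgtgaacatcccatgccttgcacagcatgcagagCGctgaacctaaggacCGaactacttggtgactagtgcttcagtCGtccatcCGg
Peg10 ICR, first bases, chr6:4697354-4697383: cCGgactccCGatacaCGCGtttccaactt
Peg10 ICR, last bases, chr6:4697462-4697491: cctaggtctgctgCGCGggctgCGgtcCGg
Peg10 exon, 5′ stretch, chr6:4705337-4705447: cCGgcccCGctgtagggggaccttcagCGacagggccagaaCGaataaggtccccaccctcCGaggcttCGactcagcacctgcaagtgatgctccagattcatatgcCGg
In both ICRs the first CpGs of the stretch share 1 set of forward reads and the last CpGs 1 set of reverse reads, so that they are not independent measurements.

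ZFP57, a zinc finger protein that protects imprints, binds the hexanucleotide TGCCGC when its CpG is methylated. These letters were searched on both strands. They occur 3 times in the Gpr1 ICR and 3 times in the Peg10 ICR, in each case outside the covered stretch, at 181 to 229 bp from it in Gpr1 and at 121 to 1003 bp in Peg10. They are shown in capitals here, and read GCGGCA where they lie on the minus strand.
Gpr1 ICR, chr1:63246765-63246842: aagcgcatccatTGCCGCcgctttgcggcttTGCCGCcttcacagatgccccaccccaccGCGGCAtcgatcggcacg
Peg10 ICR, between the starts of Sgce and Peg10, chr6:4697217-4697246: caaagcagtgcaTGCCGCgcccccacccca
Peg10 ICR, Peg10 intron, chr6:4697912-4697941: tgcactcttaagTGCCGCgctacgaacgga
Peg10 ICR, Peg10 intron, chr6:4698481-4698510: gcgctacaaactGCGGCAcaggcataagac
All 20 ICRs of the study's list hold the hexanucleotide. Of the windows of 643 bp that tile chromosome 1, the length of the Gpr1 ICR, 3.4% hold it, or 39.1% of those with at least as many CpGs as the ICR. Of the windows of 2741 bp that tile chromosome 6, the length of the Peg10 ICR, 13.5% hold it, or 87.2% of those with as many CpGs.

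At the Gpr1 ICR, Young replicates 1 and 2 were at 44.4% and 27.7%, as the mean over 9 CpGs. Old replicate 1 was at 0%, with 103 separate reads at the least and no methylated call in any CpG, which allows a level of up to 2.91%. O-S33Y # 1 was at 30.1% and 44.1%, in the range of Young. O-S33Y # 2 was at 0.202% and 0.292%, from 1 methylated call among 373 and 1 among 327 (at least 90 and 71 separate reads). At the Gpr1 ICR, the values of the near-0 libraries were thus under the share called methylated on the mitochondrial genome of the same libraries, 0.374% in Old replicate 1 and 0.449% and 0.405% in O-S33Y # 2. These limits cover counting error only.

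The cells with an shRNA were higher at the same 9 CpGs. mESC shCtrl was at 64.8% and 59.0%, mESC shβcat #1 at 56.3% and 70.7%, EB shCtrl at 77.0% and 75.8%, and EB shβcat #1 at 73.7% and 76.2%. All 4 EB libraries therefore lay above all 4 mESC libraries with an shRNA, and those above Young and O-S33Y # 1. In the order of group means, O-S33Y # 2 (0.247% ± 0.0639, SD, n = 2) was followed by Young (36.1% ± 11.8), O-S33Y # 1 (37.1% ± 9.93), mESC shCtrl (61.9% ± 4.11), mESC shβcat #1 (63.5% ± 10.2), EB shβcat #1 (74.9% ± 1.74) and EB shCtrl (76.4% ± 0.89). Young and O-S33Y # 1, the mESC groups with either shRNA, and the EB groups with either shRNA overlapped as neighbours.

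At the Peg10 ICR, Young was at 36.3% and 29.2% over 12 CpGs. Old replicate 1 was at 0.287%, with 1 methylated call among 283 (at least 45 separate reads). O-S33Y # 1 replicate 1 was at 43.2%. O-S33Y # 2 was at 0.245% and 0.556%, with 1 methylated call among 423 and 2 among 380 (at least 71 and 64 separate reads). In each of these 3 libraries the methylated calls sat in 1 of the 12 CpGs. O-S33Y # 2 replicate 2 was above the share on its mitochondrial genome here, and the other 2 libraries were below theirs. At this depth, a library without any methylated call would allow a level of up to 6.67% in Old replicate 1, and of up to 4.23% and 4.69% in O-S33Y # 2. Methylated calls were seen here, so these limits are not upper bounds of the levels.

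The cells with an shRNA were nearer to the middle of the scale at the Peg10 ICR. mESC shCtrl was at 48.8% and 44.3%, mESC shβcat #1 at 48.3% and 40.5%, EB shCtrl at 51.2% and 51.3%, and EB shβcat #1 at 45.1% and 61.0%. Here the EB and mESC libraries overlapped, unlike at the Gpr1 ICR. Among the groups with values in both libraries and away from 0, the means ran from Young (32.7% ± 5.00, SD, n = 2) through mESC shβcat #1 (44.4% ± 5.49), mESC shCtrl (46.6% ± 3.21) and EB shCtrl (51.2% ± 0.0891) to EB shβcat #1 (53.1% ± 11.3), and each neighbour above Young overlapped with the next except mESC shCtrl and EB shCtrl.

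**Figure D1:**
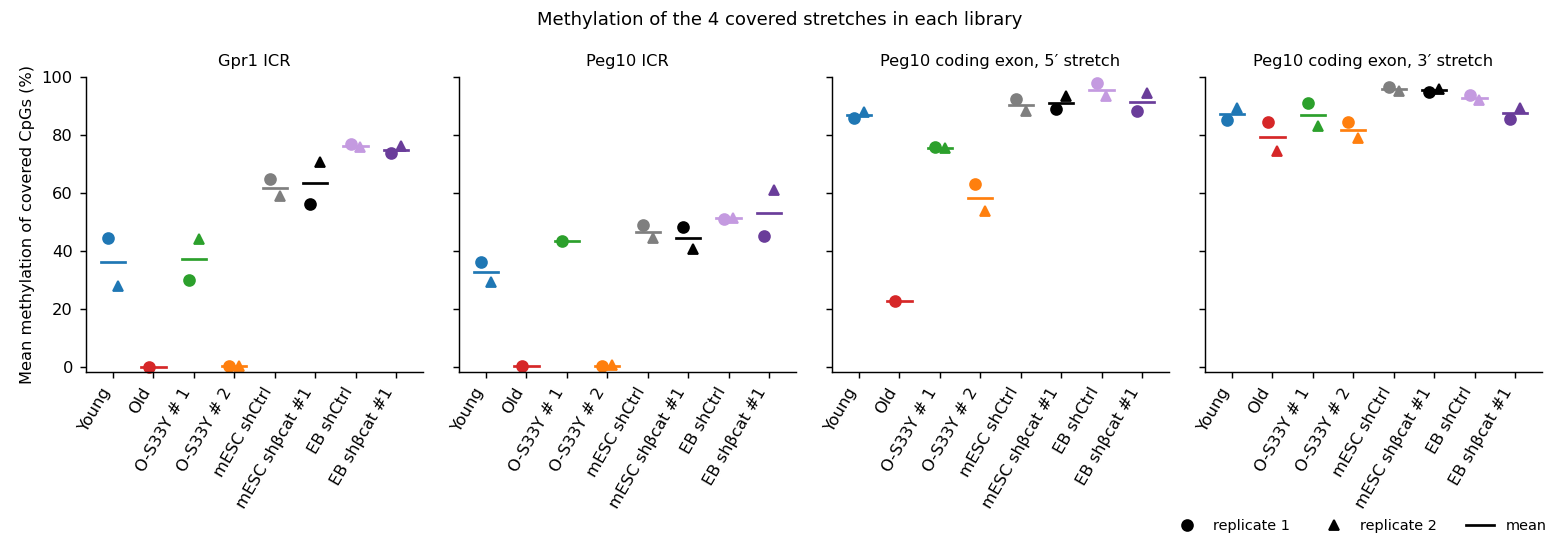
Mean methylation in percent of the covered CpGs in the Gpr1 ICR, the Peg10 ICR and the 5′ and 3′ stretches of the Peg10 coding exon, for 8 groups, with a circle for replicate 1, a triangle for replicate 2 and a line at their mean. Old replicate 1 and both O-S33Y # 2 libraries lie near 0% in both ICRs, and only Old replicate 1 stays low, at 22.7%, in the 5′ stretch of the exon.

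How far the CpGs of 1 ICR differed within a library varied between libraries. In the Peg10 ICR they ran from 47.6% to 52.4% in EB shCtrl replicate 2, but from 31.6% to 68.0% in mESC shCtrl replicate 1, from 33.3% to 65.7% in mESC shβcat #1 replicate 1 and from 42.1% to 76.9% in EB shβcat #1 replicate 2. Part of this lay between the CpGs of the forward reads and those of the reverse reads. No CpG of either ICR was covered on both strands, so strand and position cannot be told apart. In mESC shCtrl the Peg10 ICR was at 66.4% and 46.5% over the CpGs of its forward reads and at 34.2% and 42.5% over those of its reverse reads. In mESC shβcat #1 it was at 63.2% and 47.2% over the former and at 35.9% and 35.8% over the latter. The CpGs of the forward reads were thus the higher ones in all 4 libraries. The Gpr1 ICR of Young replicate 1 was at 50.0% over the CpGs of its forward reads and 33.3% over those of its reverse reads. That of Young replicate 2 was at 21.4% and 40.4%, in the opposite order.

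**Figure D2:**
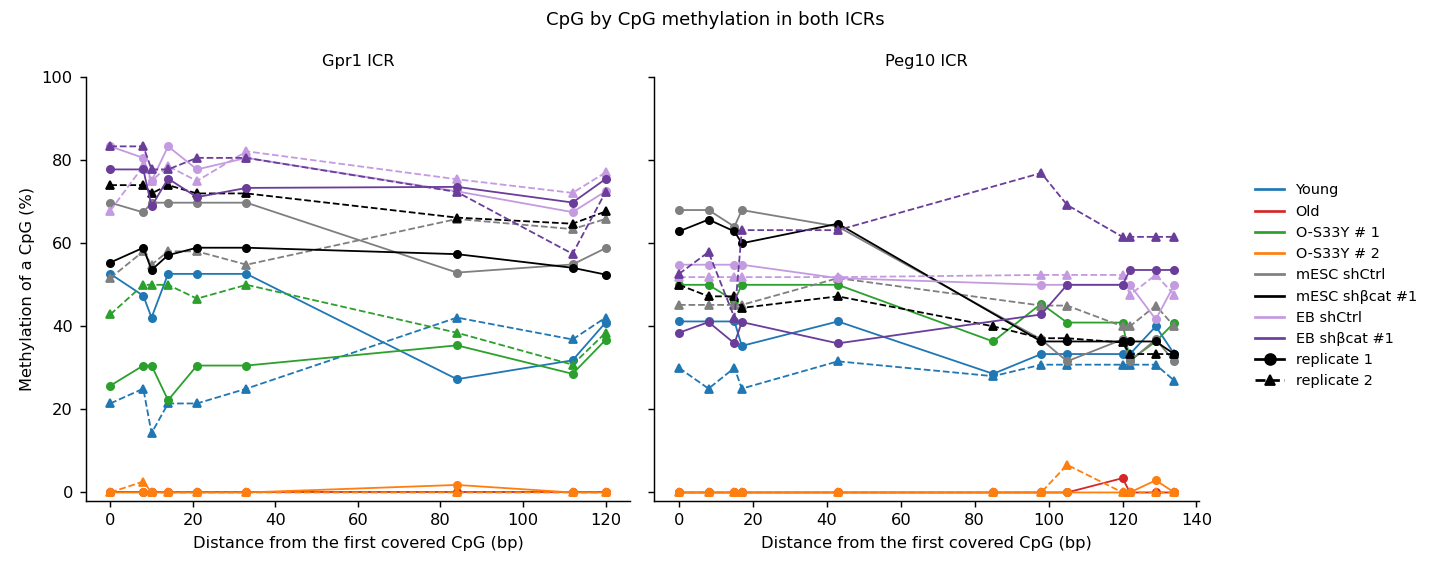
Methylation in percent of each CpG of the Gpr1 ICR (left) and of the Peg10 ICR (right) by its distance in bp from the first covered CpG, 1 line per library, coloured by group, solid for replicate 1 and dashed for replicate 2. No CpG of Old replicate 1 or O-S33Y # 2 is above 6.67%, while the CpGs of the other libraries lie between 14.3% and 83.3%.

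The last exon of Peg10, whose covered CpGs begin 8032 bp from the start of the gene, was highly methylated in most libraries. In its 5′ stretch, Young was at 85.9% and 88.0% over 7 CpGs, O-S33Y # 1 at 75.9% and 75.5%, and O-S33Y # 2 at 63.0% and 53.7%. Old replicate 1 was at 22.7%, with its CpGs between 15.0% and 30.4%, below every CpG of Young, whose lowest was at 70.0%. The 8 shRNA libraries were between 88.2% and 97.9%. The CpG 8058 bp from the Peg10 start was the lowest of the stretch in O-S33Y # 2, at 38.5% and 27.8%, and in Old replicate 1, at 15.0%.

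Further on in the exon, the 3′ stretch did not share these low levels. Old was at 84.4% and 74.3% there, O-S33Y # 2 at 84.4% and 79.2%, Young at 85.1% and 89.3%, O-S33Y # 1 at 91.0% and 83.1%, and the shRNA libraries between 85.7% and 96.5%. Over the 4 CpGs that all libraries had in this stretch, Old was at 81.8% and 73.4%. O-S33Y # 2 was at 86.7% and 76.5%, O-S33Y # 1 at 90.1% and 83.0%, and Young at 83.8% and 88.8%. Both Old libraries were below both Young libraries, which was not tested. The CpG 8856 bp from the Peg10 start is among the 4. It was at 64.5% and 45.5% in Old and at 68.3% and 81.5% in Young. Its strands differed in Old replicate 2, at 83.9% on the forward and 11.4% on the reverse strand. Within the Peg10 gene of Old replicate 1, the level thus ran from 0.287% in the ICR through 22.7% to 84.4%, and in O-S33Y # 2 from 0.245% and 0.556% through 63.0% and 53.7% to 84.4% and 79.2%.

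**Figure D3:**
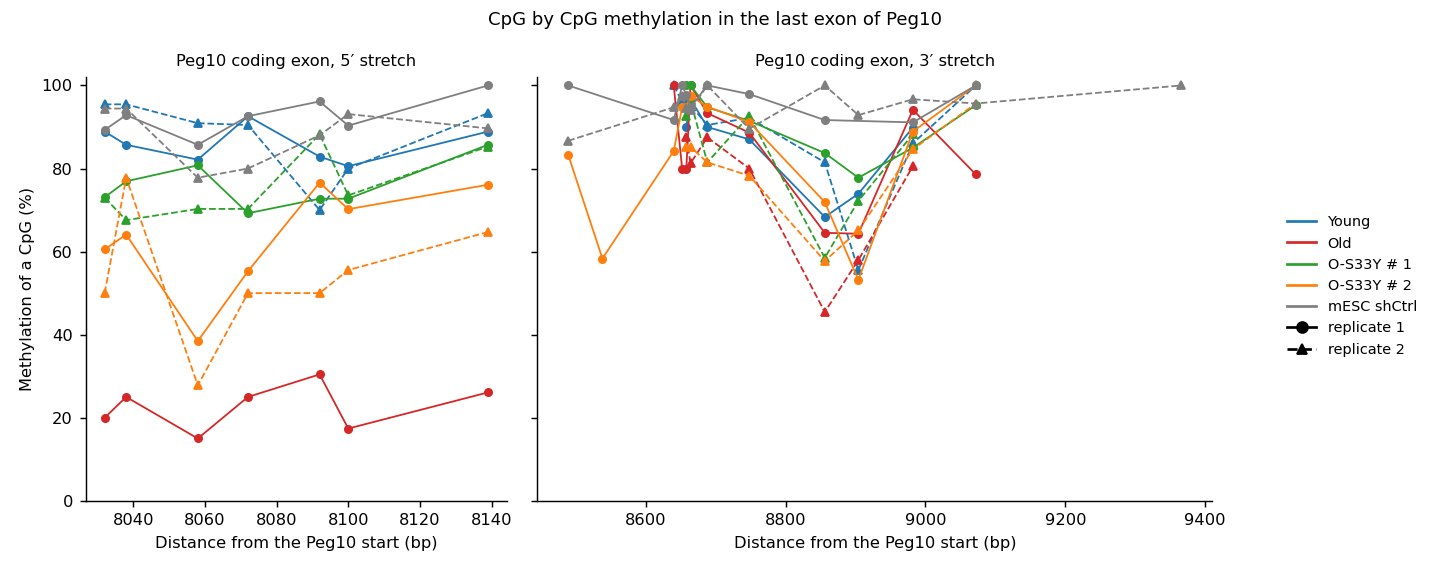
Methylation in percent of each CpG of the 5′ stretch (left) and the 3′ stretch (right) of the last Peg10 exon by its distance in bp from the Peg10 start, for Young, Old, O-S33Y # 1, O-S33Y # 2 and mESC shCtrl, solid with circles for replicate 1 and dashed with triangles for replicate 2. In the 5′ stretch Old replicate 1 lies between 15.0% and 30.4% and O-S33Y # 2 between 27.8% and 77.8%, while in the 3′ stretch no library is below 45.5%.

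Peg10 and Gpr1 were read beside the other 18 ICRs of the study's list. In O-S33Y # 2 they were the only ones under 5%, with 18 ICRs measured in each replicate and a median of 45.8% and 48.1%. The ICRs of Gnas, at 92.8% and 93.8%, and of Kcnq1ot1, at 95.0% and 96.0%, were at the opposite end in the same clone. In Old replicate 1, 10 of 18 ICRs were under 5%, namely Gpr1, Kcnq1ot1, Impact, Peg10, H13, Inpp5f, Igf2r, Grb10, Plagl1 and Nnat. The 8 of these other than Gpr1 and Peg10 were between 26.4% and 96.0% in O-S33Y # 2. Old replicate 2 had 12 ICRs measured, without Gpr1 and Peg10. Of these, 4 were under 5%, namely Impact, Grb10, Kcnq1ot1 and Inpp5f. Its median was 30.3%, against 3.6% in Old replicate 1. In the Young and O-S33Y # 1 libraries no ICR was under 5%. From the lowest up, Gpr1 was 12th and 2nd of 18 in Young, and Peg10 7th and 3rd.

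**Figure D4:**
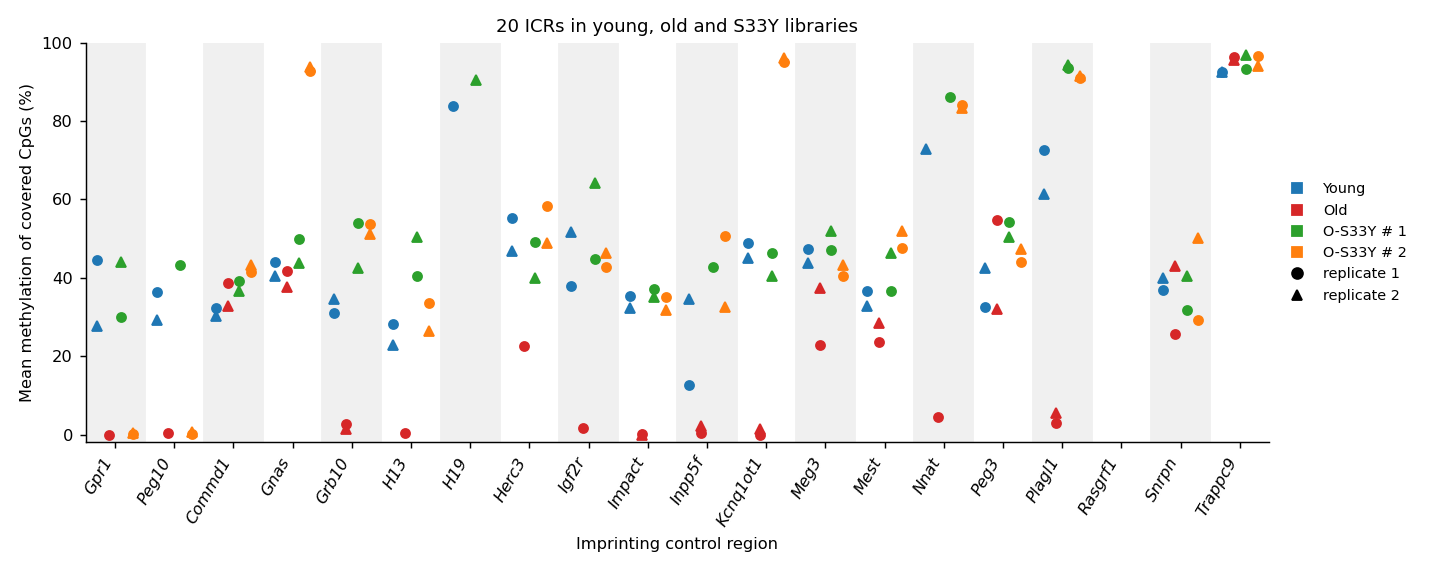
Mean methylation in percent of the covered CpGs of 20 ICRs, Gpr1 and Peg10 first, in Young, Old, O-S33Y # 1 and O-S33Y # 2, circles for replicate 1 and triangles for replicate 2, with no point where a library had under 2 CpGs. Only Gpr1 and Peg10 are under 5% in O-S33Y # 2, and 10 of 18 ICRs are in Old replicate 1.

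The silencing of β-catenin was compared with the control shRNA in mESCs, the values of which are given above. The Peg10 ICR, over the 11 CpGs common to the libraries, was at 46.6% in mESC shCtrl and 44.5% in mESC shβcat #1, a difference of -2.12 percentage points (SE 3.90, 95% CI -12.2 to 7.95, limma, adjusted p = 0.878 over all windows). The Gpr1 ICR was at 61.9% and 63.5%, a difference of 1.65 points (SE 5.71, 95% CI -13.1 to 16.4, adjusted p = 0.945). Neither difference was larger than the spread between the replicates, and the intervals reach down to -12.2 points at the Peg10 ICR and up to 16.4 points at the Gpr1 ICR. Of 81815 windows (bins of 1 kb and ICRs), 0% were called higher and 0% lower by limma, with 9455 at an unadjusted p under 0.05. None of the 17 other ICRs measured was called, and their median difference was 1.5 points, from -4.64 at Peg3 to 14.1 at Impact. Among single CpGs, 0 of 36 members were called (over 25 points of difference with an adjusted p under 0.05), against 0.111% of 915426 CpGs of the genome. No member had an unadjusted p under 0.05, and Fisher's exact test also called 0.

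In EBs the same silencing again gave no call at these loci. The Peg10 ICR was at 51.2% in EB shCtrl and 53.1% in EB shβcat #1, a difference of 1.84 points (SE 5.73, 95% CI -12.6 to 16.3, limma, adjusted p = 0.899). The Gpr1 ICR was at 76.4% and 74.9%, a difference of -1.45 points (SE 3.29, 95% CI -9.73 to 6.84, adjusted p = 0.854). Of 71462 windows, 0% were called higher and 0% lower by limma, with 12980 at an unadjusted p under 0.05. None of 17 other ICRs was called, with differences from -14.2 at Impact to 9.98 at Igf2r. Of 33 member CpGs 0 were called, against 0.0883% of the genome, with 1 at an unadjusted p under 0.05 and 0 called by Fisher's exact test. In the coding exon, the bin chr6:4706001-4707000 was at 92.7% in EB shCtrl and 83.0% in EB shβcat #1, a difference of -9.65 points (95% CI -17.7 to -1.62) that did not pass the adjustment (limma, adjusted p = 0.228). Its 3 CpGs differed by -5.73, -19.2 and -4.04 points. The largest was at the CpG 8856 bp from the Peg10 start, which had reverse reads only in these libraries. The silencing effect in EBs minus that in mESCs was 3.96 points at the Peg10 ICR (95% CI -13.5 to 21.4, limma, adjusted p = 0.793) and -3.1 points at the Gpr1 ICR (95% CI -19.0 to 12.8, adjusted p = 0.824), where 0.496% of 69011 windows were called.

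Differentiation was compared under the control shRNA, where the Gpr1 ICR was called and the Peg10 ICR was not. In EB shCtrl against mESC shCtrl, the Gpr1 ICR rose from 61.9% to 76.4%, by 14.5 points (SE 3.47, 95% CI 5.66 to 23.4, limma, adjusted p = 0.037), with both EB libraries above both mESC libraries. The Peg10 ICR went from 46.6% to 51.2%, a difference of 4.64 points (SE 3.15, 95% CI -3.37 to 12.7, adjusted p = 0.382), which was not called. Its 5 CpGs of the forward reads differed by -6.07 to -1.24 points and its 6 of the reverse reads by 6.1 to 13.02 points. Of 75938 windows, 23.6% were called higher and 0.637% lower, so a call in this direction was common, and the median difference of all windows was 1.64 points. Of the 17 other ICRs, 1 was called higher and 0 lower, namely Meg3, by 27.8 points (adjusted p = 0.0138). The Gpr1 call was lost when any of the 4 libraries was left out (11.6 to 17.4 points, limma, adjusted p = 0.0748 to 0.168) and with the replicate number as a block (adjusted p = 0.0517). No member CpG of 33 was called, against 6.42% of the genome, with 5 at an unadjusted p under 0.05 and 0 called by Fisher's exact test.

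Under silencing, the EB means of both ICRs were above the mESC means without passing the test. The Gpr1 ICR was at 63.5% in mESC shβcat #1 and 74.9% in EB shβcat #1, a difference of 11.4 points (SE 5.43, 95% CI -2.62 to 25.4, limma, adjusted p = 0.166). The Peg10 ICR was at 44.5% and 53.1%, a difference of 8.61 points (SE 6.20, 95% CI -7.41 to 24.6, adjusted p = 0.331). This mean joins opposite directions, since the 5 CpGs of the forward reads differed by -16.0 to -0.131 points and the 6 of the reverse reads by 19.53 to 24.2 points. Of 74642 windows, 23.5% were called higher and 11.1% lower. Of 17 other ICRs, Meg3 (36.7 points) and Igf2r (11.1 points) were called higher and Impact (-16.9 points) lower. No member CpG of 36 was called, against 6.6% of the genome, with 10 at an unadjusted p under 0.05 and 0 called by Fisher's exact test. In the coding exon, the bin chr6:4706001-4707000 was at 93.5% and 85.2%, a difference of -8.27 points (95% CI -14.7 to -1.83, adjusted p = 0.0583).

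mESC shCtrl lay above Young at both ICRs. By the study's text, the silencing was done in young-passage cells. The groups differ in the transduction, the shRNA and possibly the exact passage, which cannot be told apart. The Gpr1 ICR was higher by 25.8 points (36.1% against 61.9%, SE 6.34, 95% CI 9.64 to 41.9, limma, adjusted p = 0.0489), and the 4 libraries did not overlap. The Peg10 ICR was higher by 13.4 points (33.1% against 46.6%, SE 4.03, 95% CI 3.18 to 23.7, adjusted p = 0.0776), which was not called, although the 4 libraries did not overlap there either. Of 60122 windows, 15.9% were called higher and 2.76% lower, and the median difference of all windows was 2.28 points. Among the 15 other ICRs measured, 6 were called higher and 0 lower, namely Herc3 (40.8 points), Inpp5f (33.3), Plagl1 (28.8), Grb10 (24.1), Commd1 (20.8) and H13 (13.3), and their median difference was 11.1 points. Of all reads on CpGs, 24.4% and 29.6% were methylated in Young and 29.9% and 35.7% in mESC shCtrl, and the part of this in the ICR differences was not tested.

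Single CpGs of the Gpr1 ICR passed the test in this comparison. Of 33 member CpGs 4 were called higher and 0 lower, against 2.94% of the genome in either direction. All 4 lie among the first 6 CpGs of the Gpr1 stretch, at positions 63247019, 63247021, 63247025 and 63247032 of chromosome 1, with differences of 26.6 to 34.1 points (quasi-binomial test, adjusted p = 0.00245 to 0.0404). They are covered by the same reads, 19 and 28 in Young and 43 and 31 in mESC shCtrl, and so count as 1 observation rather than 4. In the Peg10 ICR the 5 CpGs of the forward reads differed by 19.0 to 26.4 points and the 6 of the reverse reads by 3.74 to 8.87 points, and none was called. In the Peg10 exon, the CpG 8856 bp from the start went from 74.9% to 95.8% (quasi-binomial test, adjusted p = 0.00219), under the limit of 25 points. There Young replicate 1 was at 100% on the forward strand (10 reads) and 62.0% on the reverse strand (50 reads), while mESC shCtrl had reverse reads only. With any of the 4 libraries left out, the Gpr1 ICR differed by 17.4 to 34.1 points. Its call was then lost, as were those of all other windows of the genome, so the loss is not particular to this ICR. Fits with a lone library in a group cannot show whether the call rests on 1 library.

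O-S33Y # 1, the other mutant clone, was compared with Young, since the choice of the loci did not use it. The Gpr1 ICR was at 37.1% against 36.1%, a difference of 1.03 points (SE 7.44, 95% CI -18.1 to 20.1, limma, adjusted p = 0.971), and the interval includes changes of up to 20.1 points. The Peg10 ICR had a value in 1 of the 2 O-S33Y # 1 libraries and was not tested. Of 57046 windows, 0% were called higher and 0% lower by limma, with 9424 at an unadjusted p under 0.05. None of 14 other ICRs was called, with differences from -6.62 at Herc3 to 27.1 at Plagl1. Of 23 member CpGs 0 were called, against 0.315% of the genome, with 3 at an unadjusted p under 0.05 and 0 called by Fisher's exact test. In the coding exon, the bin chr6:4705001-4706000, which holds the 5′ stretch, was at 88.8% in Young and 81.2% in O-S33Y # 1, a difference of -7.54 points (95% CI -14.6 to -0.45, limma, adjusted p = 0.28).

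**Figure D5:**
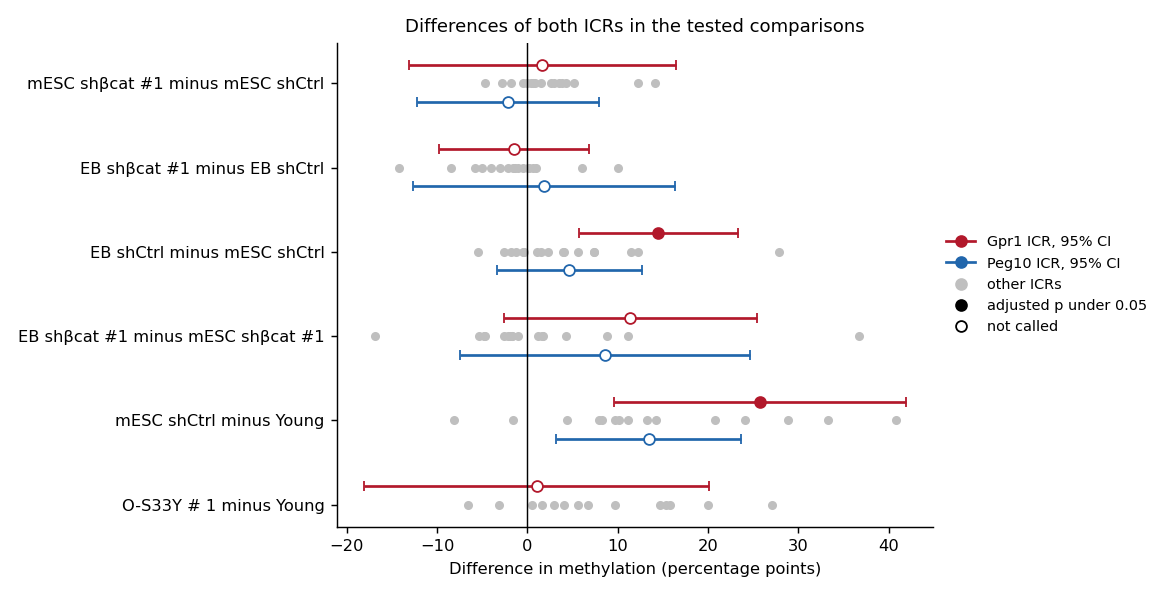
Difference in methylation in percentage points of the Gpr1 ICR (red) and the Peg10 ICR (blue) with its 95% confidence interval, and of the other ICRs (grey), in 6 comparisons, with filled symbols where the adjusted p was under 0.05. The Gpr1 ICR is called in EB shCtrl minus mESC shCtrl, at 14.5 points, and in mESC shCtrl minus Young, at 25.8 points.

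mESC shCtrl enters 3 of these 6 comparisons and Young, mESC shβcat #1, EB shCtrl and EB shβcat #1 enter 2 each, so their differences are not independent of each other. The levels of Gpr1 and Peg10 were set beside those of the other ICRs, without the Old and O-S33Y # 2 libraries. These groups were left out since they hold the values that chose the loci. By Pearson's r, Gpr1 was then most like Herc3 (r = 0.871, Spearman's rho 0.671), Commd1 (r = 0.856, rho 0.783) and Mest (r = 0.841, rho 0.79), each over 12 libraries. By the same measure, Peg10 was most like Gnas (r = 0.893, rho 0.782), H13 (r = 0.829, rho 0.673) and Commd1 (r = 0.828, rho 0.936), each over 11 libraries. Gpr1 and Peg10 had r = 0.733 (rho 0.8) with each other over 11 libraries, by r behind several other ICRs on both sides. By rho the order differed. Only Gnas (rho 0.909, r = 0.829) was then ahead of Peg10 for Gpr1. For Peg10 only Commd1 was ahead of Gpr1, with Peg3 also at rho 0.8. With the Old and O-S33Y # 2 libraries included, the order was another, with Peg10, Herc3 and H13 next to Gpr1, and Gpr1, H13 and Herc3 next to Peg10. These libraries share their groups and their overall methylation level, which also differs between them.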

How the data were processed

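RRBS libraries (NuGEN Ovation kits) of 8 groups with 2 replicates each were analysed. Per the submitters' processing notes, the authors used CASAVA 1.8.2, Trim Galore 0.2.8 and Bismark 0.7.9 with mm9. For each cytosine of a CpG the authors deposited the count of reads that cover it, with a minimum of 10, and the methylated percent of these reads, with no normalization and no pooling. The handling of duplicate reads is not given in the sources used here.

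Methylated reads were recomputed from count and percent, and both strands of a CpG were summed. Stretches were separated where 300 bp held no covered CpG. The level of a window (bins of 1000 bp with at least 3 CpGs, ICRs of the study's list with at least 2) was the mean percent of the CpGs common to the libraries compared. Windows were tested with limma 3.58.1 (eBayes with trend and robust) and single CpGs with a quasi-binomial likelihood-ratio test with 1 shared overdispersion, with Benjamini-Hochberg adjustment over all windows or CpGs and a threshold of 0.05. Both tests were tried on simulated reads. For 1 value, 2 libraries against 2 can give no exact permutation p under 0.33. Separate reads are the highest forward plus the highest reverse coverage of a stretch, and limits for a level of 0 are 3 reads of these. The genes come from GENCODE vM1 in mm9. Work was done in Python 3.11.15 and R 4.3.3. The members, the ICR list and the tests were chosen with earlier results of these data known. By rule the text names the genes in the loci, the called and most different ICRs, the 3 ICRs most like each member (over all libraries by the rule, and also, chosen after the values were seen, without the Old and O-S33Y # 2 libraries), and the CpGs that were highest, lowest or called. The alternatives were other read minimums, levels, scales, CpGs, priors, differences and tests, all libraries in 1 fit, a replicate block and each replicate left out.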

Additional observations from a re-analysis of the deposited data

How the results depend on the processing

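The limits of these data are their depth, with 2 libraries a group and 32 to 118 separate reads behind an ICR, and the missing values of Old replicate 2 at both ICRs and of O-S33Y # 1 replicate 2 at the Peg10 ICR. With at least 20 reads per CpG neither ICR had a value in mESC shCtrl against Young. Of 203 recomputed values, 173 stayed the same, 13 lost a call, 10 changed sign and 7, counts or levels with no threshold of their own, moved. An ICR difference stayed the same if it kept its direction and its side of the threshold. A count of CpGs did so if it was similar, and a level if it lay within its counting error or its SD between replicates. No difference of the Peg10 or Gpr1 ICR gained a call, and those that changed sign had not been called.

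The Gpr1 ICR difference of EB shCtrl against mESC shCtrl kept its 14.5 points but lost the call with all CpGs of each library (limma, adjusted p = 0.0525), with the replicate block (adjusted p = 0.0517) and with all 16 libraries in 1 fit (adjusted p = 0.152). That of mESC shCtrl against Young kept its 25.8 points and lost the call with all CpGs of each library (adjusted p = 0.057) and without trend and robust (adjusted p = 0.14). The cause was not tested. Both kept their calls with read-weighted levels and on the log2 scale. The Peg10 ICR difference of EB shCtrl against mESC shCtrl became -3.4 points with at least 20 reads per CpG.

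With 1 library left out, which leaves a lone library taken to vary like the others, the Gpr1 ICR ran from 11.6 to 17.4 points in EB shCtrl against mESC shCtrl, from 17.4 to 34.1 in mESC shCtrl against Young, from -7.33 to 9.38 in O-S33Y # 1 against Young and from -5.55 to 8.86 in mESC shβcat #1 against mESC shCtrl. The Peg10 ICR ran from -5.98 to 1.73 in mESC shβcat #1 against mESC shCtrl and from -6.13 to 9.81 in EB shβcat #1 against EB shCtrl. The silencing effect in EBs minus that in mESCs ran from -4.01 to 11.9 at the Peg10 ICR and from -10.3 to 4.11 at the Gpr1 ICR.

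The 4 member CpGs called in mESC shCtrl against Young could not be tested with at least 20 reads, since each had 19 reads in Young replicate 1. Of the 11 member CpGs left by that setting 0 were called, which says nothing about the 4. The count of called member CpGs was 1 with the replicate block, 5 with a difference over 10 points, and 1 to 6 with 1 library left out. In EB shβcat #1 against mESC shβcat #1, 1 was called with a difference over 10 points, and 0 to 1 with 1 library left out. The read-weighted level of the Gpr1 ICR in O-S33Y # 2 replicate 1 was 0.268%.

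The replicate number was not taken as a pairing, since the labels do not say what it marks and the deviations of libraries with the same number correlated at -0.0135 to 0.0136 over windows. The replicate block changed no other call of the Peg10 or Gpr1 ICR and no other count of member CpGs.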

Other observations

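Windows with the same kind of values as those that chose these ICRs were listed over the genome, with limits set after the values were seen. Of 56530 windows with a value in the libraries concerned, 34265 were over 20% in both Young libraries. Of these, 249 were under 5% in Old replicate 1, 29 were under 5% in both O-S33Y # 2 libraries, and 15 were both. The ICRs of Peg10 and Gpr1 are 2 of the 15 by the way they were chosen, so the count gives no support to either. The other 13 were bins of 1 kb with Young levels between 20.1% and 32.0%. Of these, 11 overlap an annotated gene each, namely Phf17, F3, Ece1, Lmtk2, Zfp553, Rassf3, Pitpnc1, Gpr135, 4930403N07Rik, 2310037I24Rik and Fbxo11. The bin in Lmtk2 (chr5:144944001-144945000) was at 30.7% and 31.9% in Young, 4.45% in Old replicate 1 and 0.505% and 3.96% in O-S33Y # 2.

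In the last exon of Peg10, the strands of single CpGs in CCGG sites gave different levels. At the CpG 8856 bp from the start, Old replicate 2 was at 83.9% on the forward strand (31 reads) and at 11.4% on the reverse strand (35 reads). At the CpG 8904 bp from the start, the same library was at 41.1% (56 reads) and 87.5% (32 reads), in the opposite order. O-S33Y # 2 was at 40.0% and 42.4% on the forward strand and at 91.7% and 90.0% on the reverse strand of the latter. With the strands summed, 1 of these 2 CpGs was the lowest of the 3′ stretch in each of the 8 Young, Old and O-S33Y libraries, and its level there depends on which strand was covered.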
